A study of Caenorhabditis elegans with 2 samples.

Results

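Intronic peaks are regions of ChIP signal whose highest point falls inside a gene but outside its exons and away from its annotated start. The pooled list they come from includes background by its name, and 196 of the intronic peaks had a q value at or below 0.05. In chromatin immunoprecipitation sequencing (ChIP-seq) of a SKN-1-tagged worm strain, 2686 of the 13300 peaks on nuclear chromosomes in the pooled list were of this kind (20.2%). A peak counted as intronic if its summit lay within a protein-coding gene of the Ensembl annotation of WBcel235 (the ce11 genome), in no coding sequence or untranslated region, and neither in the 1000 bp before nor in the 200 bp after any protein-coding 5′ end. Of these 2686 peaks, 64 (2.38%) were also in the authors' optimal list, against 6.54% of all nuclear peaks in the pooled list. These 64 are called the strong tier below, and the other 2622 the remaining intronic peaks.

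The samples were Caenorhabditis elegans L2 larvae, taken whole, of strain OP178 (genotype unc-119(ed3) III; wgIs178), with both sexes pooled and of unknown age. Chromatin was sheared by sonication, per the labels. There was 1 group with 2 biological replicates and no second condition, so nothing here compares treatments, and both libraries carry the same allele and transgene. The sample labels give SKN-1 with GFP-FLAG at its C terminus and an antibody named skn-1, but the free-text description names PHA-4, a forkhead factor, so words of both proteins were searched. How much of the locus the transgene holds, and in how many copies, is not given in the labels. Cell types cannot be checked from lists of peaks in whole animals.

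SKN-1 is the worm relative of the mammalian Nrf proteins and is best known for switching on detoxification and oxidative stress genes, in larvae chiefly in the intestine. It binds DNA as a monomer at a short AT-rich site ending in RTCAT (R is A or G). PHA-4 is the FoxA factor that specifies the pharynx, and GATA factors such as ELT-2 govern intestinal genes through sites with the core TGATAA. Introns of this worm are mostly short, and long ones can hold enhancers and internal promoters. Many worm transcripts are trans-spliced, so that an annotated 5′ end may lie downstream of where transcription begins.

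The sequences below show WWTRTCAT, the word taken for SKN-1 (W being A or T), at intronic summits with this word, chosen as the highest by signal among them plus the 2 with the word within 20 bp of the summit. Each is 30 bases of WBcel235 reference, read 5′ to 3′ on the strand that carries the word, with the word in capitals.
skn-1, strongest peak (chrIV:5657173-5657202, minus strand): gctctctcgtaTTTGTCATcatttccatgg
pqn-41 (chrIII:1925118-1925147, plus strand): aactccgacatATTATCATcttttttatcg
skn-1, intron 3 peak (chrIV:5654306-5654335, plus strand): cgggtcgttgaATTGTCATcatcgaacgtt
F49E12.12 (chrII:8382986-8383015, plus strand): tttgtattcaaATTATCATtcattctccac
wars-1 (chrV:18854968-18854997, plus strand): ataattcatcaTTTATCATcattaagtgat
aak-2 (chrX:16797149-16797178, plus strand): ggagtcacatgTATATCATgaaaaacacaa
cca-1 (chrX:7867539-7867568, plus strand): cagatgattcgAATGTCATccttgtcaaaa
In pqn-41, F49E12.12 and wars-1 the word reads TTATCA on the strand shown, which is the GATA core TGATAA on the other strand. The same bases are then counted under both words.

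The summits of skn-1 and osgn-1, the pair with the highest intronic signal, carry a stretch in common, shown here with the PHA-4 word TRTTKRY (K is G or T, Y is C or T) in capitals. At skn-1 this is the site printed above, where the PHA-4 word and the SKN-1 word overlap, so these bases are counted under both.
skn-1, strongest peak (chrIV:5657175-5657204, minus strand): gcgctctctcgTATTTGTcatcatttccat
osgn-1 (chrIV:4215546-4215575, minus strand): tactctctcccTATTTGTcagcatttttgt
Aligned on that word, the stretches were identical at 16 of 30 positions, a count that includes the word itself. No expected count was computed. The longest shared run was of 9 bases, TATTTGTCA. The middle of that run lay 2 bp from the osgn-1 summit and 23 bp from the skn-1 summit. The run also holds all but the last base of a SKN-1 word. At skn-1 the next base is T, which completes the word, and at osgn-1 it is G, which does not. The run was picked out after these sequences had been read. It was in 2 of the 64 strong-tier windows of 100 bp on each side of the summit, both of them the windows it was picked from. It was in 1.61% of other optimal windows, 1.53% of optimal windows at promoters, 0.420% of remaining intronic windows and 0.324% of all eligible intron windows.

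The strongest intronic peak lay in skn-1 itself, the gene whose product is tagged. Its signal was 609.7 in the pooled list, 440.9 in replicate 1 and 170.9 in replicate 2, and it ranked 4, 3 and 11 in those lists. It was high in all 3 lists, each of which has its own scale. The peak spans chrIV:5657078-5657326 in intron 1 of 7, which is 4347 bp long, and its summit was 1607 bp upstream of another skn-1 5′ end. A second summit in the same intron had a signal of 162.4, with 121.7 in replicate 1 and 43.5 in replicate 2. The peak in intron 3 had 93.7, with 60.7 and 36, and also lay within clec-178, a C-type lectin gene that overlaps skn-1. Reads from the chromosomal locus and from any copy of it on the transgene cannot be told apart. Without summits within 20 kb of skn-1 the tier held 61 peaks.

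The second strongest was in osgn-1, the worm relative of the human oxidative stress induced growth inhibitor genes. Its signal was 502.5 in the pooled list, 380.1 in replicate 1 and 125.1 in replicate 2, at ranks 5, 4 and 15. Both replicates thus placed it among their highest peaks, as they did skn-1. The peak (chrIV:4215438-4215666) is in intron 3 of 6, 1564 bp long. Its summit lay 1073 bp upstream of an internal osgn-1 5′ end, just past the 1000 bp limit of the rule. No promoter summit of osgn-1 was in the optimal list. The window of 100 bp on each side of the summit held no full match to the SKN-1 word, its shorter form RTCAT or the GATA core. The run shared with skn-1, in this window, matches the SKN-1 word except at its last base. The peak did hold 1 SKN-1 word farther out, 114.5 bp from the summit, and it held 2 overlapping matches to GAGAGAGA and 1 to CTGCGTC, shown in capitals below in the same manner.
osgn-1, SKN-1 word (chrIV:4215429-4215458, plus strand): atctgccacaaTTTGTCATcgggaattttc
osgn-1, GAGAGAGA (chrIV:4215507-4215536, minus strand): tgtgcacgctcGAGAGAGAgaggatgagaa
osgn-1, CTGCGTC (chrIV:4215525-4215554, minus strand): catttttgtgtCTGCGTCtgtgcacgctcg

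Below these peaks the signal dropped steeply. The tier ran from 43.3 to 609.7 with a median of 56.2, beside a median of 54 over the 806 other optimal peaks. The aspartyl protease gene asp-14 had a narrow peak of 96 bp with a signal of 150.6, and replicate values of 101.5 and 46.6. The uncharacterised gene Y41G9A.17 had 146.8, with 109.9 and 46.8. pqn-41, which encodes a glutamine-rich protein needed for linker cell death, had 113.2, with 71.4 and 37.5. These hosts kept the same high standing in both replicates, between ranks 24 and 88.

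**Figure D1:**
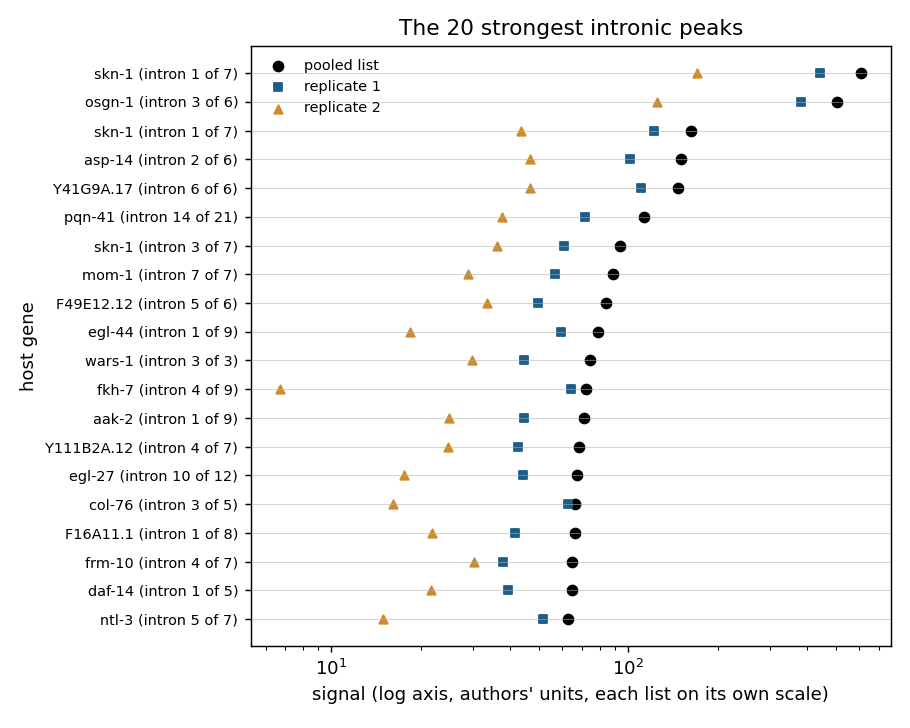
Signal (log axis, authors' units) of the 20 strongest intronic peaks in the pooled list and the overlapping peak of each replicate, by host gene and intron. The summits in skn-1 at 609.7 and in osgn-1 at 502.5 stand above all others, and replicate 2 gave fkh-7 only 6.70.

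The next hosts serve varied functions. mom-1, a Porcupine relative that acts in Wnt secretion, had 88.6 (56.4 in replicate 1 and 28.9 in replicate 2). F49E12.12 had 84.1 (49.7 and 33.4). egl-44, a TEAD family transcription factor, had 79.2 (59.3 and 18.5). The tryptophanyl-tRNA synthetase gene wars-1 had 74.4 (44.3 and 29.8), and aak-2, a catalytic subunit of AMP-activated kinase, had 70.7 (44.6 and 24.8). The forkhead gene fkh-7 had 72.3, but its replicates were far apart: 64.1 at rank 113 in replicate 1 and 6.70 at rank 8272 in replicate 2.

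The other hosts of the 20 strongest peaks had signals from 62.4 to 68.3. They were Y111B2A.12, egl-27 (an MTA-type chromatin protein), the collagen gene col-76, F16A11.1, frm-10 (a FERM domain protein), daf-14 (a Smad of the dauer TGF-β pathway) and ntl-3 (a subunit of the CCR4-NOT deadenylase). 3 genes hosted more than 1 strong-tier summit. skn-1 had 3, ntl-3 had 2 in its 4138 bp intron 5 (62.4 and 60.3), and the nuclear receptor gene nhr-19 had 2 in its 4213 bp intron 2 (52.4 and 48.3).

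The edge of the tier carried no step in signal. The lowest members inside were dnj-9 (43.40), vhp-1 (43.37) and C05G5.1 (43.28), and the highest intronic peaks outside were in T28F4.1 (43.19), H18N23.2 (43.17) and ras-1 (43.16). Every row of the optimal list was among as many of the highest rows of the pooled list by signal, so tier and rank are the same choice.

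The strong tier comes from a list named as thresholded on agreement between these same replicates, and its rows are the highest by pooled signal. Overlap with the replicates thus describes that choice and does not show that each member agreed by itself. C30G4.4, for example, was at rank 561 in replicate 1 and 11947 in replicate 2. A peak of replicate 1 overlapped all 64, and a peak of replicate 2 overlapped 62, all but those in sea-2 (48.2 in the pooled list and 43.5 in replicate 1) and T28B11.1 (44.6 and 44.9). Among other optimal peaks 98.8%, and among the remaining intronic peaks 52.9%, were overlapped in both replicates. The replicate lists are long, at 24771 and 28630 peaks, and overlap with them is a lenient measure. Of the strong tier, 49 were among the strongest peaks of replicate 1, taking as many as the optimal list holds, 38 among those of replicate 2, and 27 (42.2%, 95% interval 29.9 to 55.2) among both, beside 48.4% of other optimal peaks. The median distance from the pooled summit was 6 bp for summits of replicate 1 and 21.5 bp for those of replicate 2. In replicate 1, 63 of 64 summits were within 100 bp of the pooled one, and in replicate 2, 49 of 62, with the farthest at 290 bp. Intervals are exact binomial ones and cover only the counting of peaks, not variation between animals.

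Signals of the strong tier agreed only in part between replicates. Over the 62 peaks found in both, log2 signals had a Pearson r of 0.643 and a Spearman rho of 0.243, and without skn-1 and osgn-1 at their top summits (60 peaks) the r was 0.335. This was not particular to the tier: over 796 other optimal peaks found in both, r was 0.502 and rho 0.308. Both sets hold only the highest rows by pooled signal, and such a choice can lower r and rho. These values thus do not measure agreement over all peaks. The points come from the same 2 libraries and are given as a description. The peaks of nep-22, a neprilysin-family gene, and unc-43, which encodes CaMKII, show the gap: nep-22 had 54.5 in replicate 1 and 7.78 in replicate 2, and unc-43 had 53.4 and 7.60.

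**Figure D2:**
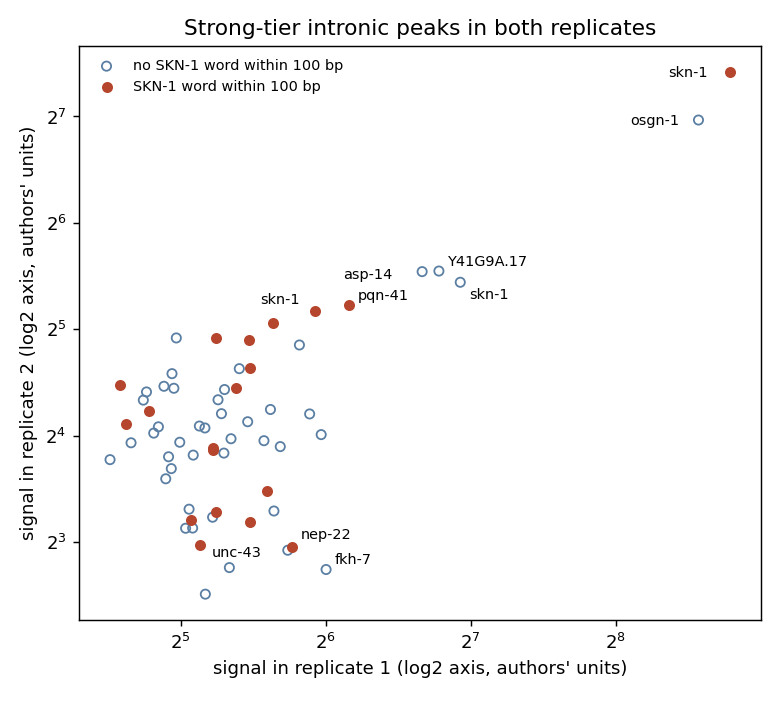
Signal of 62 strong-tier intronic peaks in replicate 1 (x, log2 axis) and replicate 2 (y, log2 axis), in the authors' units, filled where the SKN-1 word is within 100 bp of the summit. The strongest skn-1 peak and osgn-1 lie apart at the upper right, and the rest form a broad cloud (r = 0.335 without this pair).

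Introns were less common among the stronger peaks. Sequence that met the intronic rule made up 27.1% of the nuclear genome. Intronic summits were 7.36% of the nuclear peaks in the block of strongest peaks, down to the last rank of the optimal list (5.71 to 9.30), 12.9% from there to rank 2000, 16.6% on to rank 4000, 21.2% to 7000, 22.8% to 10000 and 25.0% to rank 13302 (23.5 to 26.5). The intervals of the first and last blocks do not overlap, and the lowest block came near the genome share. The promoter windows remove many of the intronic sites: 129 optimal summits were in an intron before those windows were applied, and 64 of these (49.6%) remained.

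**Figure D3:**
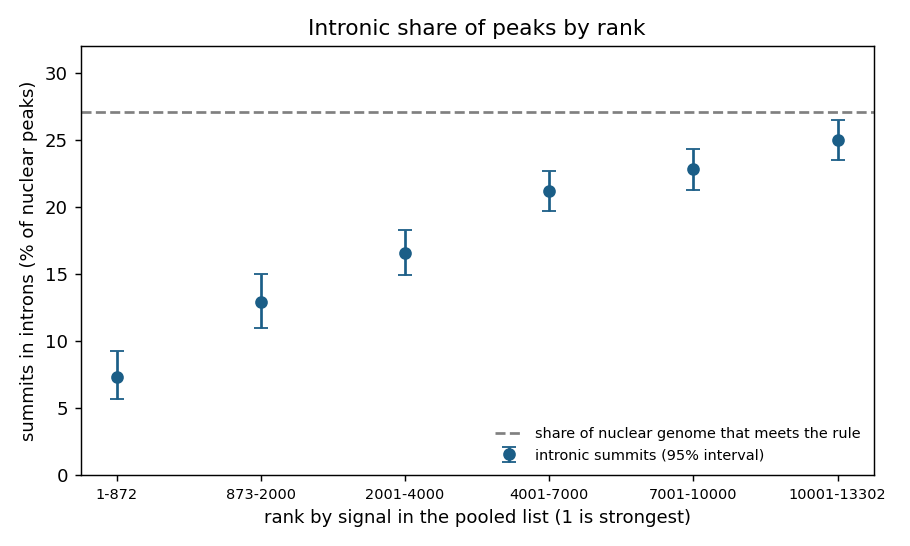
Percent of nuclear peaks whose summit is intronic, by rank of signal in the pooled list, with exact 95% intervals, and the share of the genome that meets the rule (dashed, 27.1%). The share climbs from 7.36% in the strongest block to 25.0% in the weakest.

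Strong-tier summits were mostly in long introns. The median length of their introns was 3003 bp (95% interval of the median 2279 to 4347; range 225 to 19927), beside 1111.5 bp for the remaining intronic peaks and 959 bp for the intron around a typical eligible base. Introns of 2000 bp or more held 41 of the 64 summits (64.1%), 37.8% of the remaining ones and 29.6% of eligible intron sequence. Per Mb of eligible intron there were 1.17 strong-tier summits in introns under 500 bp, 0.955 from 500 to 1000 bp, 1.56 from 1000 to 2000 bp, 4.57 from 2000 to 5000 bp and 5.69 above that. The remaining peaks were spread more evenly, at 75.1 to 97.8 per Mb below 5000 bp and 151 per Mb above.

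**Figure D4:**
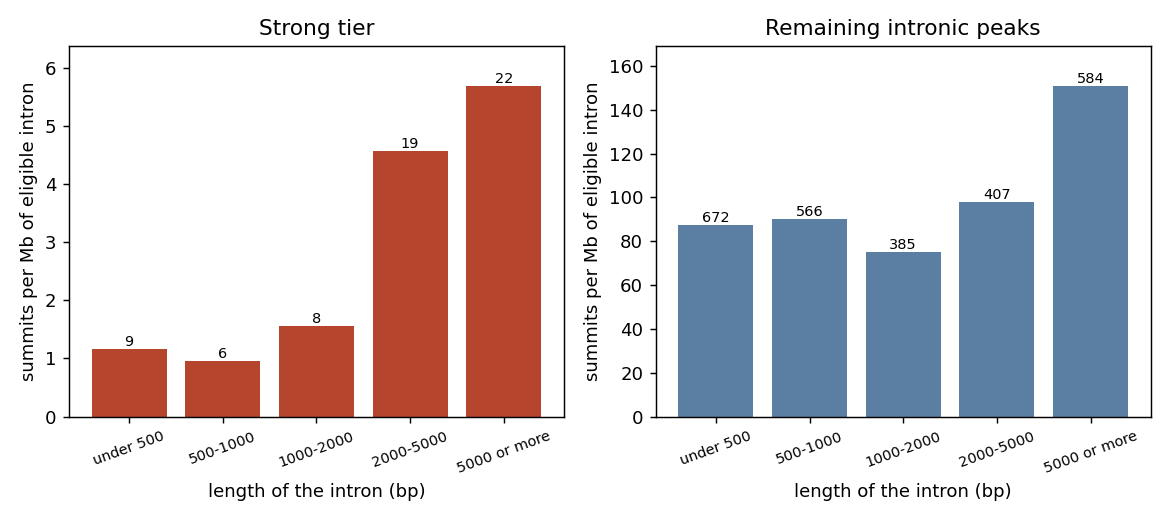
Intronic summits per Mb of eligible intron by length of the intron, for the strong tier (left) and the remaining intronic peaks (right), with the number of summits above each bar. The strong tier goes from 1.17 per Mb in the shortest class to 5.69 in the longest, and the remaining peaks from 87.6 to 151.

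The longest introns of the tier were those of Y48C3A.5 (19927 bp), T28B11.1 (17091 bp), cca-1 (14503 bp), rbf-1 (12167 bp) and ppfr-1 (10404 bp). cca-1 encodes a T-type calcium channel, rbf-1 the rabphilin of synaptic vesicles and ppfr-1 a regulatory subunit of protein phosphatase 4. Their peaks were weak, at signals of 44.2 to 52.2. The shortest introns were those of nep-22 (225 bp), asp-14 (265 bp), fbxl-4 (266 bp), F49E12.12 (268 bp) and haf-9 (286 bp), and their peaks ranged from 46.9 to 150.6. Full-width peaks of 340 bp are wider than these introns, so the position rests on the summit alone, and 14 of the 64 peaks (21.9%) reached into exons, against 39.4% of the remaining intronic peaks. The median summit was 877.5 bp from a splice site in the strong tier and 262 bp in the rest.

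The share of first introns depended on the transcript chosen. In the longest coding transcript across each summit, 14 of 64 summits (21.9%, 12.5 to 34.0) were in the first intron, 12 (18.8%) in the second and 38 (59.4%) farther on, beside 21%, 15.8% and 63.2% of eligible sequence. By the smallest order over all transcripts, 28 (43.8%) were in a first intron, against 28.5% of eligible sequence and 36.9% of the remaining intronic peaks.

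Many strong-tier summits lay upstream of an annotated coding 5′ end. For 26 of 64 (40.6%) the nearest coding 5′ end lay downstream of the summit, against 19.9% of eligible sequence and 23.5% of the remaining peaks. In the zone from 1000 to 2000 bp upstream of such an end there were 15 summits, or 6.39 per Mb, beside 2.79 per Mb in the zone 1000 to 2000 bp downstream. The remaining intronic peaks went the same way, at 132 and 93.6 per Mb. 7 of the 15 were within 1200 bp, at osgn-1, frm-10, daf-14, epg-9, vhp-1, C05G5.1 and Y48C3A.5, close to the limit of the promoter window. These genes were singled out after their distances had been seen. The zone from 1000 to 1200 bp upstream held 10.9% of the strong tier, 2.78% of the remaining peaks and 2.18% of eligible sequence. epg-9 encodes an autophagy factor and vhp-1 a phosphatase that acts on stress-activated MAP kinases. With the promoter window widened to 2000 bp upstream, 44 strong-tier peaks remained. The nearest 5′ end belonged to the host gene itself for 55 of the 64 (85.9%).

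Of 60 host genes, 6 (10%, 3.76 to 20.5) had an optimal summit in a promoter window, beside 5.65% of hosts of remaining intronic peaks and 3.68% of all coding genes with an eligible intron. The 6 were skn-1, Y111B2A.12, egl-27, frm-10, lap-1 and dnj-9. lap-1 encodes a leucine aminopeptidase and dnj-9 a DnaJ-domain protein. By chromosome, X held 17 summits, or 3.71 per Mb of eligible intron, and II held 12, or 3.18 per Mb, while the remaining peaks were 126 per Mb on X and 93.8 on II. 4 summits also fell within an annotated noncoding gene: in aak-2 and ppfr-1 a ncRNA, in dhc-4, a dynein heavy chain gene, a snRNA, and in haf-9, an ABC transporter gene, a snoRNA.

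The gene groups for which SKN-1 is best known were not among the hosts. No strong-tier summit fell in the 18 genes of glutathione and phase II detoxification with eligible introns, in 40 glutathione S-transferase genes or in 22 proteasome genes. Their eligible introns are small, at 13.1, 22.8 and 4.4 kb of the 27110.5 kb in all, so these zeros carry little information. The 12 insulin signalling genes (76.6 kb) also held none. Of these genes 6 (50%) held a remaining intronic peak, 17 peaks in all, beside 11.2% of all coding genes with an eligible intron. These shares are per gene and do not allow for intron length. daf-16 alone had 9 remaining peaks in 18890 bp of eligible intron, and daf-2 had 3 in 33497 bp. Groups with strong-tier hosts were the nhr family of nuclear receptors (nhr-19 and nhr-137, 2 of 260 genes, 395.0 kb) and forkhead genes (fkh-7 and fkh-9, 2 of 14, 55.2 kb). The others were heat shock and chaperone genes (dnj-9, 1 of 44, 55.5 kb) and SKN-1 regulators (skn-1, 1 of 19, 36.2 kb). Over all genes it was 60 of 16792 (0.357%) in 27110.5 kb. The host among the regulators was the tagged gene itself, and fkh-7 was only at rank 8272 in replicate 2. That list of regulators left out the signalling genes unc-43 (61.9), mpk-1 (48.4) and vhp-1 (43.4), which were also strong-tier hosts. fkh-9 had a signal of 45.7 (27.5 and 18.8) and nhr-137 had 43.4 (28.1 and 16.3). No gene of the ribosomal protein (4.4 kb of eligible intron), hlh (34.2 kb), bZIP (43.8 kb), muscle (131.2 kb), homeobox (132.1 kb) or neuronal channel and receptor (488.4 kb) lists hosted one, beside 2.36 summits per Mb over all eligible intron. The calcium channel gene cca-1, a host, was not on the neuronal list. Likewise skn-1, a host, was counted among the regulators and was not on the bZIP list.

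The remaining intronic peaks were scattered over 1875 genes. Of the 1894 hosts of any intronic peak, 1465 held 1 and 44 held 5 or more. Among the hosts with most remaining peaks, ppfr-1 held 13, lin-14 held 12, and daf-12, daf-16, daf-5 and fkh-7 held 9 each. lin-14 sets the timing of early larval fates, daf-12 is a nuclear receptor and daf-16 the FoxO factor of the insulin pathway, and daf-5 encodes a Ski-family cofactor in the dauer TGF-β pathway. Each of these genes had 15376 to 21597 bp of eligible intron. Signals of the remaining peaks were 14.9 to 43.2 with a median of 18.3, and their median q value of 0.703 reflects that the pooled list, per its file name, includes background.

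The SKN-1 word was in 19 of 64 strong-tier windows of 100 bp on each side of the summit (29.7%, 18.9 to 42.4). It was in 12.4% of the remaining intronic windows, 27.4% of other optimal windows, 25.9% of those at promoters, and 9.20% of all 135472 eligible intron windows of the same length, both strands counted. Among the intronic peaks of replicate 2 alone, taking as many of its strongest peaks as the optimal list holds, the share was 18.8%. The shorter RTCAT, which lies within the longer word, was in 76.6%, 56.4%, 69.4%, 67.0% and 48.4% of the same sets. The share fell with rank, from 29.7% of intronic windows in the strongest block to 17.1%, 16%, 14%, 11.6% and 9.69% in the following ones. Within the tier, 12 of the stronger 32 windows and 7 of the weaker 32 held the word, and their intervals overlap (21.1 to 56.3% and 9.28 to 40.0%). The nearest word was within 20 bp of the summit in 2 windows, in skn-1 and cca-1, from 20 to 50 bp in 12 and beyond in 5.

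The word has a form with G and a form with A. The form with G, WWTGTCAT, was in 8 strong-tier windows (12.5%, 5.55 to 23.2) and 18.2% of other optimal windows (15.6 to 21.1). The form with A, WWTATCAT, was in 12 (18.8%, 10.1 to 30.5) and 11.8% (9.64 to 14.2). The intervals overlap for both forms. The remaining intronic windows had 5.15% and 7.63%, and all eligible windows 3.80% and 5.65%. This split was added after the overlap with the GATA core had been seen.

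The GATA core TGATAA was in 32 of 64 windows (50%, 37.2 to 62.8), against 24.4% of the remaining intronic windows (22.7 to 26.1), 38.3% of other optimal windows (35 to 41.8) and 16.5% of eligible windows. It fell with rank as well, to 42.5% in the next block and 18.5% in the last block. The SKN-1 word and the GATA core were both in 15 windows, but in 11 of these a match of the one overlapped a match of the other. Leaving out GATA matches that overlap a SKN-1 word, 30 strong-tier windows (46.9%) and 21.2% of the remaining ones still held the core. 28 windows held neither word, and 1 window held none of the 8 words searched at first.

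The repeat GAGAGAGA was in 11 of 64 windows (17.2%, 8.90 to 28.7), against 4.04% of the remaining intronic windows (3.32 to 4.87), 6.20% of other optimal windows (4.64 to 8.10) and 1.11% of eligible windows. The hosts included skn-1 at its 2 weaker summits, osgn-1, pqn-41, egl-44, daf-14 and ntl-3, with up to 10 overlapping matches in daf-14. CTGCGTC, a word that an earlier search of these same summits had found, was in 11 windows (17.2%), 11.9% of other optimal, 3.20% of remaining intronic and 1.5% of eligible windows. The strong tier was also richer in G and C, at a median of 36.8% against 33.3% for both the remaining intronic peaks and eligible windows, as were other optimal peaks at 37.8%. It was less soft-masked as repeat, at 20.9% against 35.3% and 44.3%. The part of base composition and repeats in these word shares was not tested.

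The PHA-4 word, which is short and common, was also more frequent in the strong tier than in the remaining intronic peaks. TRTTKRY was in 46 strong-tier windows (71.9%, 59.2 to 82.4) and 47.4% of the remaining ones (45.5 to 49.3). It was in 58.7% of other optimal windows (55.2 to 62.1), an interval that overlaps that of the tier, and 42.6% of eligible windows. In the 10 strongest intronic peaks it was in 10 windows and the SKN-1 word in 4, while the next peak, in wars-1, did not hold it. It did not rise with strength across the tier, with 22 of the stronger 32 windows and 24 of the weaker 32. Its stricter form TGTTTRC was in 6 (9.38%, 3.52 to 19.3), against 7.59%, 14% and 5.34%. CACGTG, an E-box, was in 6 (9.38%, 3.52 to 19.3), 4.12%, 6.45% and 2.82%. TGASTCA (S is C or G), the site of paired bZIP proteins, was in 1 (1.56%), 3.24%, 3.72% and 1.56%. A match describes the letters of a window and is not a bound site.

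**Figure D5:**
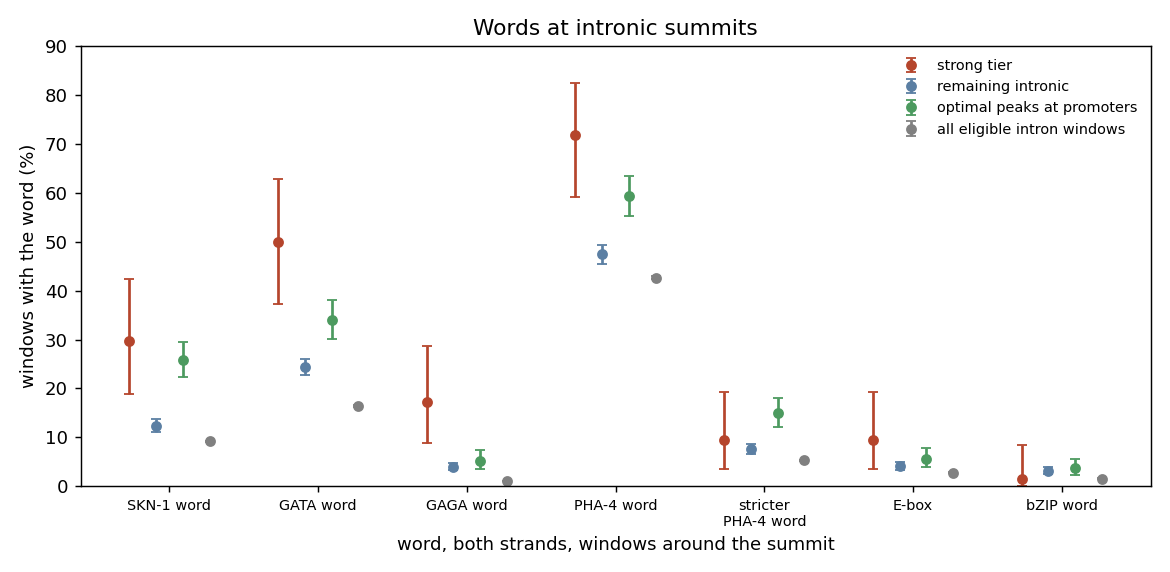
Percent of windows of 100 bp on each side of the summit that hold each word on either strand, with exact 95% intervals, for the strong tier, the remaining intronic peaks, optimal peaks at promoters and all eligible intron windows. In the strong tier the SKN-1 word reached 29.7%, the GATA word 50%, the GAGA word 17.2%, the PHA-4 word 71.9% and the bZIP word 1.56%.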

How the data were processed

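Only the ce11 peak lists were used: replicate 1, replicate 2, pooled, and optimal, the last named in the files as thresholded by the irreproducible discovery rate. The authors deposited a signal value and a −log10 q value per peak, and these are their own values, used here for ranking and description inside one list. The peak caller, aligner, cutoffs and read depth are not given in any source used here. Replicates are called biological in the labels. The summit is the start plus the offset in the file. Genes came from Ensembl release 115 and sequence from RefSeq, both WBcel235; 0 peaks passed a chromosome end. Host introns came from the longest coding transcript across the summit. Words were searched on both strands within 100 bp of the summit with Python 3.11, and intervals are exact (Clopper-Pearson, scipy 1.17.1). With 1 group and no second condition no test was made. The members, words and lists were chosen with earlier results of these data known. Hosts named are those of the 20 strongest peaks, hosts with 2 or more summits, list members, the edges of the tier, the extremes of intron length, word matches within 20 bp, and genes with most remaining summits; others are examples chosen after their values were seen. A list of signalling kinases was not used, as its members had not been set down before the hosts were read. Word counting and the intronic rule were tested on simulated data.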

Additional observations from a re-analysis of the deposited data

How the results depend on the processing

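Of 61 recomputed values, 51 stayed within limits set around the reported one and 10 moved. The limits were wide: 42.7 to 96 for the 64 strong-tier peaks and 1790.67 to 4029 for the 2686 intronic peaks. For shares and the median length they were the 95% interval. Strong tiers of 44 and 81 peaks, from a wider and a narrower promoter window, were thus within them. The number of intronic peaks was 5838 to 7048 when a single replicate's longer list replaced the pooled one, and the strong tier grew to 196 with q at or below 0.05 in place of the optimal list. The SKN-1 word share was 18.8 to 27.4% with 1 replicate left out, the lowest without replicate 1, then 76.6% with RTCAT and 12.5% with the form with G, a setting chosen after seeing the data. The GATA share was 31.2% within 50 bp of the summit. The first-intron share was 43.8% by smallest order. The share found in both replicates was 82.8% with summits within 100 bp and 42.2% with each replicate's strongest peaks only. The annotation marks no canonical transcript, so that alternative could not be told from the main one, and the share in both replicates has no value with a replicate left out. No paired analysis was possible because there is only 1 group. Read depth is unknown, which limits what the weak peaks can show.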
